A study of Mus musculus with 2 samples.

Results

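The spinous keratinocytes of mouse back-skin wounds were the 586 cells, among 23089 cell barcodes of 2 single-cell RNA libraries, that passed a gate for keratinocyte transcripts and held RNA of the suprabasal keratins *Krt1* and *Krt10*. A kept cell had at least 500 genes and at most 6% of its unique molecular identifiers (UMIs) from mitochondrial genes, which left 15514 cells. In the gate, 8 keratinocyte genes (*Krt5*, *Krt14*, *Krt1*, *Krt10*, *Krt6a*, *Krt16*, *Krt17* and *Lgals7*) made up at least 1.5% of the UMIs, *Col1a1* with *Col3a1* less than 0.5%, and *Lyz2* was under 5 UMIs, and 2178 cells passed. Members also had 20 or more UMIs of *Krt1* and *Krt10* together, fewer than 5 of *Krt79*, and fewer than 3 of the cycling genes *Mki67* and *Top2a*. The cells were thus chosen by measured UMIs of these 14 genes, whose values describe the choice and are no findings.

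Live cells were sorted as 7AAD-negative on day 5 from splinted full-thickness wounds with surrounding back skin, 3 male mice pooled per library. The labels give both libraries as C57BL/6 *Mrc1-DTR* mice, 7 to 9 weeks old, treated with PBS or with DTX, whereas the methods describe diphtheria toxin given to wild-type controls and to *Mrc1-DTR* mice. In *Mrc1-DTR* mice the *Mrc1* (CD206) promoter drives the diphtheria toxin receptor. There was 1 library per label, so the values compare libraries and no test between conditions was possible. Intervals are 95% intervals that cover counting error only.

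*Mrc1*, the gene whose promoter drives the receptor, did not follow the labels. Over all kept cells it was at 65.5 CPM (UMI counts scaled to a common total, interval 63.8 to 67.2) in the library labelled PBS and at 267 CPM (263 to 271) in the library labelled DTX. Cells with 5 or more *Mrc1* UMIs were 5.03% (exact Clopper-Pearson interval 4.57 to 5.52) and 17.4% (16.5 to 18.3) of the kept cells. The libraries are therefore called PBS-labelled and DTX-labelled throughout, and directions between them depend on those labels. The DTX-labelled library also held more cells with 5 or more *Lyz2* UMIs, 68.5% of the kept cells against 23.7%, and fewer collagen and keratinocyte cells, as given with the cell shares. Within these cells *Mrc1* was at 399 CPM in the PBS-labelled and 403 CPM in the DTX-labelled library. Whether the labels were exchanged was not tested. In the spinous cells *Mrc1* had 14 and 4 UMIs in all.

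In the epidermis, keratinocytes divide in the basal layer, where KRT5 and KRT14 form the intermediate filaments and hemidesmosomes hold the cell to the basement membrane. Cells that leave this layer become spinous. They switch to KRT1 and KRT10, build many desmosomes, and later, as granular cells, make loricrin, filaggrin and barrier lipids before they cornify. At a wound edge, suprabasal keratinocytes are also known for the stress keratins KRT6, KRT16 and KRT17.

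Windows of 250 bases before the start of transcription are shown for a gene that defined the cells (*Krt10*), for markers named for them (*Krtdap*, *Serpinb2*) and for *Krt77*, so that what these co-expressed genes carry upstream can be read. *Krtdap* encodes a small secreted protein of differentiating keratinocytes, *Serpinb2* an intracellular serine protease inhibitor, and *Krt77* a further suprabasal type II keratin. The sequences are from RefSeq on GRCm38.p6, which has the coordinates of mm10, and run 5′ to 3′ on the strand of the gene. Capitals mark the TATA box TATAAA, searched on the strand of the gene, and the AP-1 motif TGANTCA, searched on both strands.
*Krt10*, chr11:99389365-99389614, minus strand: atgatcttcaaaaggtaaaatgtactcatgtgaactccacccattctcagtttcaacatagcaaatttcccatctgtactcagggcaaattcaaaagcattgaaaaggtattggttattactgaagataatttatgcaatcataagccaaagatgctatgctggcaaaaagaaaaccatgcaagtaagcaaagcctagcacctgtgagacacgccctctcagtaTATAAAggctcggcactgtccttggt
*Krtdap*, chr7:30787655-30787904, plus strand: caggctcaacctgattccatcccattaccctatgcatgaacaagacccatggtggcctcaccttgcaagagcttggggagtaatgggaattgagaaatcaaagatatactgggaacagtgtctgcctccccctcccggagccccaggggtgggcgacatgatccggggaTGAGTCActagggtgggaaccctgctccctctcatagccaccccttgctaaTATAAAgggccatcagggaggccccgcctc
*Serpinb2*, the farther upstream of its listed starts, chr1:107511173-107511422, plus strand: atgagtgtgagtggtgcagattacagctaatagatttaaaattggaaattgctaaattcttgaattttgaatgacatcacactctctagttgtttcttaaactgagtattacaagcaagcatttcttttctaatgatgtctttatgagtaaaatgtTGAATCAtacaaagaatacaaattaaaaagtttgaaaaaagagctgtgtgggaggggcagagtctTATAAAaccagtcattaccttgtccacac
*Krt77*, chr15:101869706-101869955, minus strand: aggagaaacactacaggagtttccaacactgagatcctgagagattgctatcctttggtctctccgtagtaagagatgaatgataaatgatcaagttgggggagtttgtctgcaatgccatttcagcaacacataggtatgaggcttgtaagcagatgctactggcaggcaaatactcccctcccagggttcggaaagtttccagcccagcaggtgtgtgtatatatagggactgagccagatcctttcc

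TATAAA began 26 bases before the start in *Krt10*, 30 in *Krtdap* and 29 in *Serpinb2*, and these letters were not in the *Krt77* window. Other forms of the TATA box were not searched. An AP-1 motif began 81 bases before the start in *Krtdap* and 94 in *Serpinb2*. Of all 32851 promoter windows in the table, 7.59% held TATAAA and 6.75% the AP-1 motif. In the spinous programme list described later, 16 of 22 genes had a window, and 5 of its 19 windows held TATAAA and 8 the AP-1 motif. In the cornified envelope list 27 of 32 genes matched, and of 29 windows 12 held TATAAA and 11 the AP-1 motif. In the basal and hemidesmosome list 13 of 22 genes matched, and of 18 windows 2 held TATAAA and 1 the AP-1 motif. Windows of 1 gene overlap, and related genes of a cluster share sequence, so windows are not independent. The AP-2 motif GCCNNNGGC, searched on both strands, was in 13.7% of all windows, and in 1 window of each of the 3 lists. A match is a run of letters and was not tested for binding.

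Spinous cells were 544 of 8326 kept cells in the PBS-labelled library, 6.53% (exact interval 6.01 to 7.09), and 42 of 7188 in the DTX-labelled library, 0.584% (0.421 to 0.789). All keratinocytes were fewer there: 1960 cells passed the gate in the PBS-labelled and 218 in the DTX-labelled library. Within the gate, the spinous share was 27.8% (25.8 to 29.8) and 19.3% (14.2 to 25.1), basal cells were 683 and 67 (34.8% and 30.7%), and infundibulum cells 518 and 88 (26.4% and 40.4%). Collagen cells had at least 0.5% *Col1a1* and *Col3a1* UMIs and under 5 *Lyz2* UMIs. They were 37.3% of the kept PBS-labelled and 9.06% of the kept DTX-labelled cells, and *Lyz2* cells 23.7% and 68.5%. Sorting and tissue sampling can set such shares, and with 1 library each their part was not tested.

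Spinous cells were deeply sampled. Their median was 16538 UMIs and 3022 genes in the PBS-labelled library and 20645 UMIs and 3238 genes in the DTX-labelled library. Basal cells, a class defined later, had medians of 11406 and 14451 UMIs. Both classes were set by counts of UMIs and not by shares, and the part of this in the depth was not tested. In all the spinous cells held 9413290 and 853943 UMIs, so 3 UMIs, the limit that a count of 0 allows, corresponded to 0.319 and 3.51 CPM. *Krt1* and *Krt10* together had a lowest, median and highest value of 20, 118 and 1287 UMIs in PBS-labelled and of 38, 132.5 and 466 UMIs in DTX-labelled members. Just inside the limit, 29 PBS-labelled cells had 20 to 24 such UMIs, with *Krtdap* at 1151 CPM and *Krt14* at 9489 CPM. Just outside, 36 cells had 15 to 19, with *Krtdap* at 782 CPM and *Krt14* at 12569 CPM. In the DTX-labelled library 2 cells lay just outside and 0 just inside. Another 84 PBS-labelled and 11 DTX-labelled kept cells reached 20 UMIs outside the gate.

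The markers of spinous cells were then read in the members. *Krt1*, the type II suprabasal keratin (mm10, chr15:101845426-101850794), was at 3544 CPM in the PBS-labelled and 3478 CPM in the DTX-labelled cells. *Krt10*, its type I partner (chr11:99385254-99389364), was at 5645 and 4636 CPM. Both were used by the rule. *Krtdap* (chr7:30787896-30791097), which the rule did not use, was at 4492 and 4387 CPM, against 128 and 161 CPM in basal cells. In infundibulum cells, the *Krt79* class described later, it was at 3130 and 3865 CPM, so that it set spinous cells apart from basal cells but was not particular to them. Its log2 ratio over basal cells was 5.12 in the PBS-labelled and 4.76 in the DTX-labelled library. *Serpinb2* (chr1:107511423-107535478) was at 8087 and 7751 CPM, but basal cells held 7510 and 5539 CPM. It thus did not mark spinous against basal cells in these wounds, with log2 ratios of 0.11 and 0.48.

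*Krt77* (chr15:101858731-101869705) was at 2617 and 2478 CPM in spinous cells and at 40.4 and 50.4 CPM in basal cells. With each cell thinned to 5000 UMIs, which left out 16 PBS-labelled cells and 1 DTX-labelled cell, 86.6% and 80.5% of spinous cells had a *Krt77* UMI, and 91.0% and 90.5% did so without thinning. Free RNA gives UMIs in cells that lack a gene. In *Lyz2* cells, with medians of 5446 and 7062 UMIs, the thinned share was 9.07% and 1.21%. *Krt10* was at 182 and 27.7 CPM in those *Lyz2* cells, more in the PBS-labelled library.

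**Figure D1:**
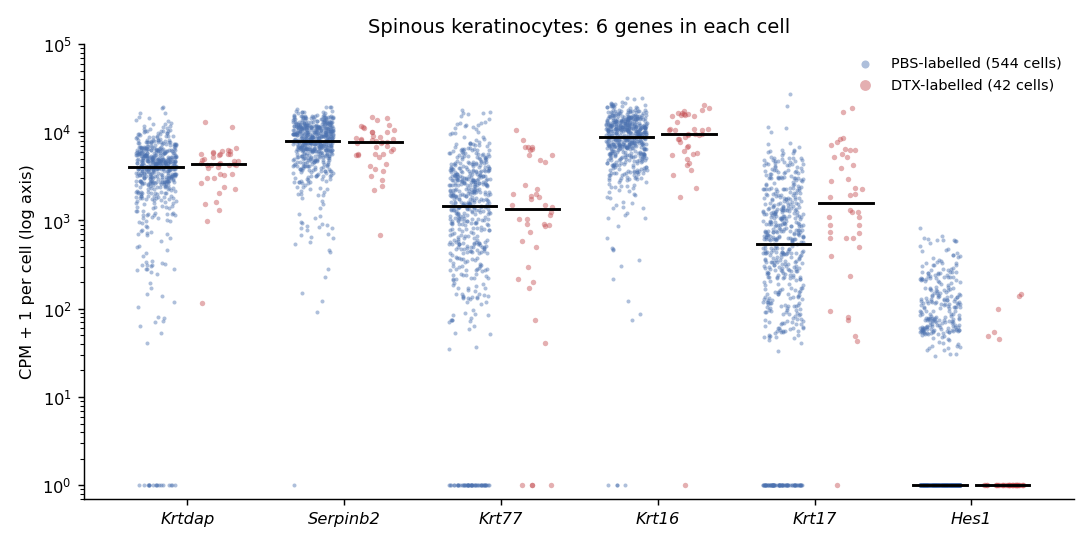
CPM + 1 in each spinous cell on a log axis for 6 genes, with 544 PBS-labelled cells in blue and 42 DTX-labelled cells in red and the median as a black line. The medians of *Krtdap* (4006 and 4384 CPM), *Serpinb2* (7962 and 7667), *Krt77* (1476 and 1336) and *Krt16* (8905 and 9590) lie close together, and that of *Krt17* is 538 and 1575 CPM. The median of *Hes1* is 0 in both.

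The comparison with basal cells shows what the spinous cells made that the rule did not use. Basal cells were gated keratinocytes with 20 or more UMIs of *Krt5* and *Krt14*, under 5 of *Krt1* and *Krt10*, and the same limits on *Krt79* and cycling genes. Genes were compared where the mean of both levels was worth at least 20 UMIs in the smaller sum, and a log2 ratio is of CPM + 1. Of 9176 genes compared in the PBS-labelled library, 665 (7.25%) were at least 2-fold higher in spinous cells and 1313 (14.3%) at least 2-fold lower. Of 4143 genes in the DTX-labelled library, 385 (9.29%) were higher and 722 (17.4%) lower. The median log2 ratio of all genes was -0.28 and -0.23. With ratios centred on these medians, 920 genes were at least 2-fold higher and 809 lower in the PBS-labelled library, and 482 and 521 in the DTX-labelled library, so that the excess of lower genes depended on the scaling. Ratios below are not centred.

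The cornified envelope list holds the precursors and crosslinking enzymes of the protein shell of dead keratinocytes. Of 32 genes, 25 were compared in the PBS-labelled library and 24 were at least 2-fold higher in spinous cells, with a median log2 ratio of 4.21. In the DTX-labelled library it was 18 of 19, with a median of 5.14, or 4.94 with the 6 genes at 0 in basal cells held at 3 UMIs. Over the alternatives in processing this DTX-labelled median ran from 3.29 to 5.51. *Cnfn*, a cornified envelope protein, was at 415 and 516 CPM in spinous cells and at 1.82 CPM in PBS-labelled basal cells, 228-fold lower. It had 0 UMIs in DTX-labelled basal cells, so that spinous cells were at least 174-fold higher as a sum. Of its DTX-labelled spinous UMIs, 370 lay in the middle group of 14 cells described later, 71 in the high and 0 in the low group. *Sprr1b*, a small proline-rich envelope precursor, was at 1942 and 1699 CPM against 30.3 and 38.6 CPM. *Ivl* (involucrin), the early envelope scaffold, was at 261 and 163 CPM against 5.94 and 1.98 CPM. *Tgm1*, the membrane transglutaminase, was at 95.4 and 155 CPM against 3.64 and 13.8 CPM.

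The spinous programme list of 22 genes was higher throughout. All 22 were compared in the PBS-labelled library, 16 of them past 2-fold upwards and none downwards (0), and their median was 2.13. In the DTX-labelled library 14 of 19 were at least 2-fold higher, with a median of 1.92. *Sbsn* (suprabasin) was at 4940 and 4999 CPM against 203 and 325 CPM in basal cells. *Fabp5*, the epidermal fatty acid binding protein, was at 5522 and 9113 CPM against 256 and 405 CPM. *Sfn* (stratifin) was near the basal level, at 8964 and 10222 CPM against 7759 and 8032 CPM.

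Barrier lipid genes, which make and carry ceramides and their very long fatty acids, were also higher. In the PBS-labelled library 16 of 23 were at least 2-fold higher and 1 lower, with a median of 1.64. In the DTX-labelled library 14 of 17 were past 2-fold upwards, 0 downwards, and the median was 2.31. *Elovl4*, an elongase of very long fatty acids, was at 392 and 344 CPM in spinous and at 8.61 and 24.7 CPM in basal cells. *Alox12b*, a lipoxygenase of the barrier, was at 108 and 104 CPM against 2.30 CPM and 0 UMIs. *Abca12*, the lipid transporter of lamellar granules, was at 353 and 441 CPM against 77.9 and 73.1 CPM. *Sptlc2*, of the first step of sphingolipid synthesis, was at 126 and 130 CPM against 112 and 92.9 CPM, a small difference.

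Cholesterol synthesis genes were higher in spinous than in basal cells as well, 12 of 21 at least 2-fold in the PBS-labelled and 9 of 13 in the DTX-labelled library, with 0 at least 2-fold lower in either. Their medians were 1.15 and 1.24. *Fdps*, farnesyl diphosphate synthase, was at 166 and 327 CPM in spinous cells and at 39.9 and 65.2 CPM in basal cells. *Hmgcs1*, the synthase at the start of the pathway, was at 173 and 232 CPM against 54.5 and 87.0 CPM.

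Most desmosome and junction genes were somewhat higher in spinous cells, 19 of 22 above a log2 ratio of 0 in the PBS-labelled and 16 of 19 in the DTX-labelled library, against 2916 of 9176 and 1528 of 4143 of all genes. The list median was 0.66 in the PBS-labelled and 0.70 in the DTX-labelled library, with 5 of 22 and 6 of 19 genes at least 2-fold higher. *Dsg1a*, a desmoglein of upper layers, was at 532 and 470 CPM against 87.2 and 54.4 CPM in basal cells. *Dsg3*, the desmoglein of lower layers, was at 91.0 and 110 CPM against 141 and 157 CPM. *Gja1* (connexin 43) was lower in spinous cells, at 103 and 84.3 CPM against 341 and 345 CPM.

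Genes of the basal layer and its hemidesmosomes were lower. In the PBS-labelled library 19 of 22 were at least 2-fold lower, with a median of -2.12, and in the DTX-labelled library 17 of 20, with a median of -2.86. *Itgb4*, the integrin of the hemidesmosome, was at 12.4 and 4.68 CPM in spinous cells and at 130 and 126 CPM in basal cells. *Lamb3*, a chain of laminin 332, was at 7.86 and 1.17 CPM against 130 and 111 CPM. *Trp63*, the transcription factor of stratified epithelia, was at 67.7 and 84.3 CPM against 163 and 175 CPM. The basal keratins *Krt14* and *Krt5* were used to choose the basal cells. In spinous cells *Krt14* was still at 3248 and 1880 CPM.

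**Figure D2:**
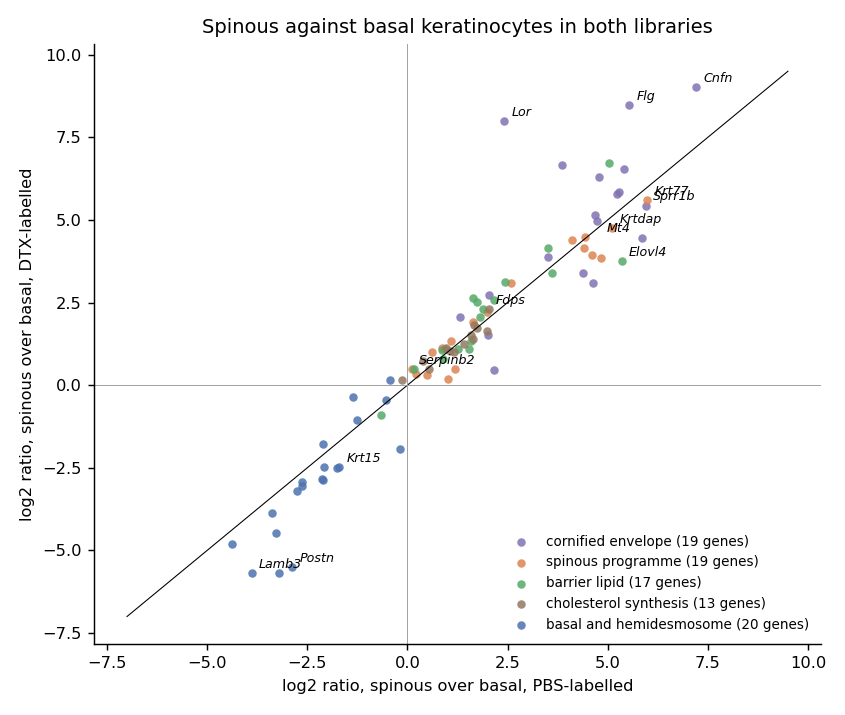
Log2 ratio of spinous over basal cells (CPM + 1) in the PBS-labelled library on the x axis and in the DTX-labelled library on the y axis, for the genes of 5 lists compared in both, with the line of equal ratios. Cornified envelope genes (violet) lie at the upper right and basal and hemidesmosome genes (blue) at the lower left, and *Lor* and *Flg*, whose DTX-labelled UMIs lie almost all in 1 cell, lie above the line.

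Ranked over all genes by the smaller ratio of both libraries, the leading genes over basal cells were *Cnfn*, *Gm94*, *Crct1*, *Lce3c*, *Skint9*, *Endou*, *Krt77*, *Flg*, *Sprr1b*, *Cdsn*, *Slc5a8*, *2310050C09Rik*, *Krt6b*, *Ivl* and *Trex2*. *Flg* had its UMIs in few cells, 16 of 544 PBS-labelled and 2 of 42 DTX-labelled cells. The 78 DTX-labelled *Cdsn* UMIs all lay in 1 group of 14 cells. *Crct1*, a cysteine-rich gene of the epidermal differentiation complex, was at 638 and 498 CPM against 6.31 and 4.94 CPM. *Slc5a8*, a sodium-coupled monocarboxylate transporter, was at 111 and 165 CPM against 1.21 and 2.97 CPM. At the other end stood *Il19*, *Has2*, *Ptn*, *Itga3*, *Nedd9*, *Tnfrsf4*, *Gpr161*, *Ccnd2*, *Angptl4* and *Lamb3*. *Has2*, a hyaluronan synthase, was at 1.59 CPM and 0 UMIs in spinous cells and at 72.3 and 86.0 CPM in basal cells. *Ccnd2* (cyclin D2), which drives entry into the cell cycle, was at 17.7 and 7.03 CPM against 295 and 272 CPM.

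The regulators of differentiation did not move as a block. Their median ratios over basal cells were 0.41 and 0.04, with 11 of 30 and 8 of 25 genes at least 2-fold higher and 6 and 6 at least 2-fold lower. *Grhl3*, a factor of barrier formation, was at 209 and 274 CPM against 31.5 and 49.4 CPM. *Cebpa* was at 200 and 242 CPM against 35.1 and 26.7 CPM, and *Casz1* at 354 and 392 CPM against 63.6 and 101 CPM. In the Notch pathway, which directs the switch to the spinous state, the receptor *Notch3* was at 18.1 and 16.4 CPM against 2.79 and 4.94 CPM. The receptor *Notch1* was at 19.02 and 5.86 CPM against 64.0 and 61.3 CPM, and the ligand *Jag1* at 9.24 and 2.34 CPM against 71.9 and 104 CPM. *Klf4* was at 416 and 253 CPM in spinous cells and at 297 and 280 CPM in basal cells, so that its ratio had opposite signs in the libraries, and was above 0 in both when centred.

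Signals between cells were lower in spinous than in basal cells for part of the lists. Growth factor and receptor genes had medians of -1.19 and -0.66, with 12 of 23 and 6 of 18 genes at least 2-fold lower. *Tgfb1* was at 7.12 and 4.68 CPM against 42.8 and 82.0 CPM, whereas *Hbegf*, a ligand of the EGF receptor, was at 1133 and 1286 CPM against 585 and 739 CPM. For cytokines and chemokines the medians were -0.41 and -0.45, where those of all genes were -0.28 and -0.23. This list went both ways, with 6 of 25 and 5 of 18 genes at least 2-fold higher and 7 and 7 lower. *Cxcl14* was at 45.8 and 41.0 CPM against 510 and 632 CPM, and *Il1rn*, the interleukin 1 receptor antagonist, at 329 and 248 CPM against 179 and 110 CPM. The wound-edge keratinocyte list had medians of -0.05 and 0.62, with 8 of 28 and 9 of 23 genes at least 2-fold higher and 8 and 5 lower. The medians were -0.65 and -0.95 for oxidative stress and metallothionein genes, -0.41 and -0.52 for interferon-stimulated genes, -0.12 and -0.28 for glycolysis and hypoxia genes, and -0.03 and -0.06 for immediate early and heat shock genes. When centred, the PBS-labelled medians of the wound-edge and of the glycolysis and hypoxia genes and both medians of the immediate early genes were above 0.

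Spinous cells were also set against *Krt79* cells of the infundibulum, the upper mouth of the hair follicle, which numbered 518 and 88. *Cst6* (cystatin M/E) was among the lowest ratios, at 424 and 659 CPM in spinous and 41627 and 36051 CPM in infundibulum cells. Others that led downwards were *Rgs4*, *Klk6*, *Timp3*, *Chil1*, *Lpgat1* and *Prss22*, and *Klk6*, a secreted protease, was at 9.35 and 3.51 CPM against 635 and 801 CPM. The genes that led upwards were *Spink4*, *Gadl1*, *Serpinb12*, *Hpgds*, *Sprr2f*, *Slc1a1*, *Nsg1* and *Pyy*. *Hpgds*, a prostaglandin D synthase, was at 520 and 627 CPM in spinous and at 44.7 and 35.6 CPM in infundibulum cells. *Gadl1*, a decarboxylase, was at 107 and 228 CPM in spinous cells, against 5.83 CPM in PBS-labelled and 0 UMIs in DTX-labelled infundibulum cells. The cornified envelope list, raised over basal cells, had a median of -0.49 and -0.30 against the infundibulum, where all genes had -0.15 and -0.13. In this list 4 of 26 and 5 of 22 genes were at least 2-fold higher and 9 and 6 lower.

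Among themselves the spinous cells differed by how much of their RNA was *Krt1* and *Krt10*, from 0.0755% to 4.55% of UMIs in PBS-labelled and from 0.128% to 3.21% in DTX-labelled cells. By this share the cells of each library were divided into a low, a middle and a high group, of 182, 181 and 181 PBS-labelled and 14 each DTX-labelled cells. Since the share orders the cells, the following levels are a description. In PBS-labelled cells *Krt77* was at 1044, 2258 and 4311 CPM from the low to the high group, and *Krtdap* at 2226, 4377 and 6576 CPM. *Calm4*, a calmodulin-like protein of the skin, was at 2340, 4065 and 6446 CPM. Envelope precursors were graded, with *Ivl* at 84.9, 257 and 419 CPM and *Sprr1b* at 1038, 1940 and 2736 CPM. Steeper were *Klk7*, a protease that frees corneocytes, at 166, 341 and 1143 CPM and *Cdsn* (corneodesmosin) at 1.67, 9.65 and 188 CPM.

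Basal genes ran the other way. In PBS-labelled cells *Krt14* was at 6799, 1696 and 1505 CPM, *Krt5* at 2051, 563 and 161 CPM, *Krt15* at 818, 467 and 120 CPM and *Col17a1* at 389, 168 and 85.8 CPM. *Krt14* and *Krt5* are genes of the gate. The wound keratin *Krt16* was at 9028, 10496 and 8812 CPM, and *Serpinb2* at 8662, 8531 and 7194 CPM. In DTX-labelled cells *Krt77* was at 2000, 2253 and 3183 CPM and *Krt5* at 1269, 283 and 224 CPM. *Krt14* had no single direction there, at 3936, 291 and 1307 CPM. *Krt15* was lowest in the low group, at 20.5, 298 and 168 CPM. *Klk7* (71.8, 665 and 266 CPM), *Cnfn* (0, 1344 and 248 CPM) and *Cdsn* (0, 283 and 0 CPM) peaked in the middle group. That group of 14 cells included the cell rich in granular genes described below, which held all of the group's 215 *Lor* and 292 *Flg* UMIs. The part of this cell in the *Klk7*, *Cnfn* and *Cdsn* peaks was not tested.

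**Figure D3:**
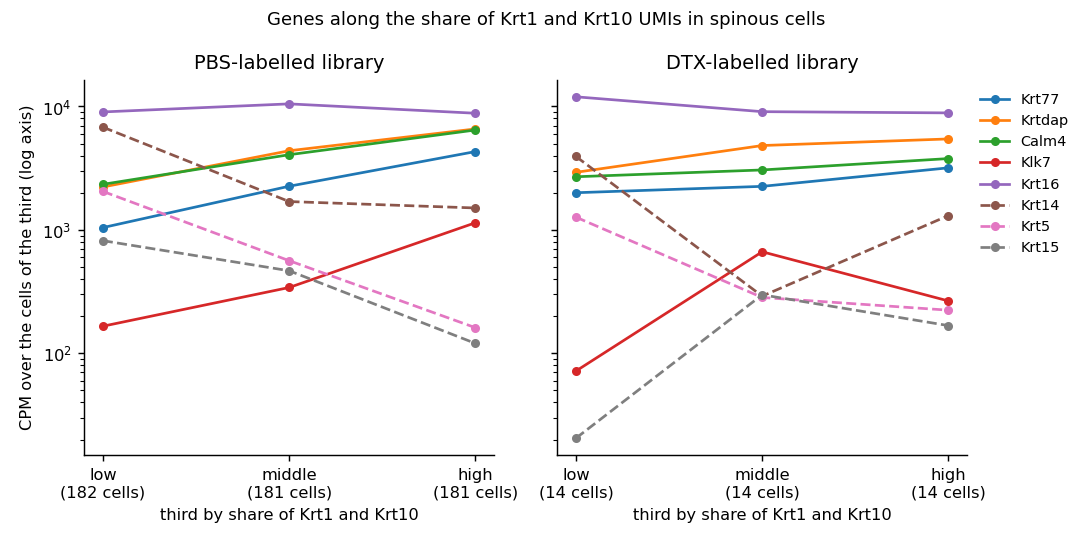
CPM on a log axis over the cells of the low, middle and high group by share of *Krt1* and *Krt10* UMIs, for 8 genes in the PBS-labelled (left) and DTX-labelled (right) library. Dashed lines are basal keratins, which slope down in the PBS-labelled library, where *Krt77* runs from 1044 to 4311 CPM and *Krt5* from 2051 to 161 CPM.

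Between the libraries, spinous cells were alike for most genes. Of 3741 genes compared, 44 were at least 2-fold higher in DTX-labelled cells (1.18%) and 60 at least 2-fold lower (1.6%), and the median log2 ratio was -0.01. In basal cells 73 of 4773 genes (1.53%) were at least 2-fold higher and 41 (0.859%) lower. Single cells weighed on the side of higher genes. When the cell with the most UMIs of a gene was left out in each library, 22 of the 44 higher and 59 of the 60 lower genes were still past 2-fold. With every cell thinned to 5000 UMIs, when fewer genes could be compared, 15 genes were higher and 7 lower.

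The lists of the spinous state had about as many genes past 2-fold as all genes (1.18% higher and 1.6% lower). In the spinous programme list 0 of 20 compared genes were at least 2-fold higher and 1 lower, with a median of -0.05, and the lower gene was *Mt4*. *Mt4*, a metallothionein of stratified epithelia, was at 98.3 CPM in PBS-labelled and 21.1 CPM in DTX-labelled spinous cells (log2 ratio -2.17, interval -2.98 to -1.55), and its ratio was -0.95, under 2-fold, with cells thinned to 5000 UMIs. The desmosome list had 0 genes past 2-fold in either direction and a median of 0.05, and the barrier lipid list 0 and a median of -0.02. *Fabp5* was at 5522 and 9113 CPM (0.72, 0.69 to 0.76) and *Calm4* at 4381 and 3177 CPM (-0.46, -0.52 to -0.41). Of the stress keratins, which the gate used, *Krt16* was at 9418 and 9999.5 CPM, *Krt6a* at 672 and 1186 CPM and *Krt17* at 1241 and 3377 CPM. *Krt17* was higher in DTX-labelled basal cells too, at 3174 and 5138 CPM.

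Granular genes were among the highest ratios through 1 cell. *Lor* (loricrin, the main cornified envelope protein) was at 9.56 and 254 CPM, *Flg* (filaggrin) at 68.2 and 352 CPM, and *Hrnr* (hornerin) at 18.9 and 99.5 CPM. A single DTX-labelled cell held 215 of 217 *Lor* UMIs, 292 of 301 *Flg* UMIs and 85 of 85 *Hrnr* UMIs. That cell also held 111 of 138 UMIs of *Slurp1*, a secreted regulator of keratinocytes, and 53 of 55 of the cytokine *Il1f6*. Without it the log2 ratio was -1.63 for *Lor*, -2.55 for *Flg*, -4.32 for *Hrnr* and -2.11 for *Il1f6*, and the cornified envelope median went from 0.23 to -0.66. The genes past 2-fold, again without that cell, were 36 higher and 76 lower. These ratios kept the PBS-labelled top cells, of which 1 held 68 *Lor* and 209 *Flg* UMIs and another 97 *Hrnr* UMIs. With the top cell of each library left out, *Lor* was nearly alike in both. Cells with 10 or more UMIs of *Lor*, *Flg* and *Hrnr* were 9 of 544, or 1.65% (exact interval 0.759 to 3.12), and 1 of 42, or 2.38% (0.0603 to 12.6). A difference in granular cells was thus not detectable with 42 cells.

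**Figure D4:**
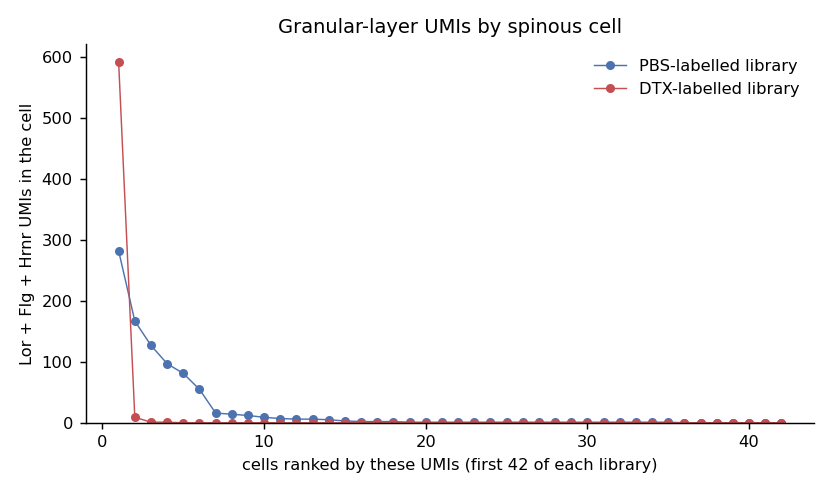
UMIs of *Lor*, *Flg* and *Hrnr* together in each spinous cell, ranked within each library, for the first 42 cells of each. The first DTX-labelled cell (red) holds 592 UMIs and the next 9, and the PBS-labelled cells (blue) start at 282, 167 and 127.

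Some of the other higher genes were spread over more cells. *Lcn2* (lipocalin 2, an antimicrobial siderophore binder) was at 4.25 CPM in PBS-labelled and 131 CPM in DTX-labelled spinous cells (log2 ratio 4.65, interval 4.42 to 5.51), and its UMIs lay in 24 of 544 and 15 of 42 cells. After thinning it was found in 2.65% and 14.6% of spinous cells, and in 1.35% and 4.40% of *Lyz2* cells. In basal cells it was at 22.8 and 85.0 CPM. *Has3*, a hyaluronan synthase, was at 25.1 and 101 CPM (1.96, 1.63 to 2.37), and in 8.14% and 31.7% of thinned spinous cells against 0.269% and 0.126% of thinned *Lyz2* cells. *Sprr2a3*, a small proline-rich protein, was at 145 and 499 CPM (1.77, 1.62 to 1.94), and at 107 and 520 CPM in basal cells. *Prss53*, a serine protease, was at 10.4 and 41.0 CPM (1.88, 1.38 to 2.55). *Krt6b* was at 180 and 813 CPM, but 368 of its 694 DTX-labelled UMIs lay in 1 cell, and its ratio of 2.17 was 1.20 without the top cells and 0.54 where *Krt1* and *Krt10* made up at least 0.5% of UMIs. *Slurp2* (1.95) and *Egr4* (1.91) complete the 12 highest genes, and without the top cells their ratios were 0.87 and -0.18.

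On the lower side stood genes of connective tissue. *Dcn* (decorin) was at 122 CPM in PBS-labelled and 7.03 CPM in DTX-labelled spinous cells (log2 ratio -3.94, interval -5.57 to -2.99), *Col1a2* at 78.2 and 8.20 CPM and *Sparc* at 101 and 17.6 CPM. All 6 fibroblast markers had UMIs in both libraries, and their sum was 499 CPM, led by *Dcn*, in PBS-labelled and 69.1 CPM, led by *Sparc*, in DTX-labelled spinous cells. The same sum was 511 and 338 CPM in basal, 506 and 88.4 CPM in infundibulum and 962 and 295 CPM in *Lyz2* cells. In collagen cells, which were the larger share of the PBS-labelled library, *Dcn* was at 15278 and 9418 CPM. The part of free RNA from such cells in these ratios was not tested.

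Some chemokine genes were lower as well. *Cxcl1*, which attracts neutrophils, was at 92.8 and 7.03 CPM (-3.55, -5.17 to -2.60), *Ccl2*, which attracts monocytes, at 116 and 16.4 CPM (-2.74, -3.69 to -2.06), and *Ccl7* at 42.5 and 8.20 CPM. *Tnfaip6*, a hyaluronan-binding protein of inflamed tissue, was at 60.8 and 3.51 CPM, and *Tnip3*, an inhibitor of NF-kappaB signalling, at 45.5 and 8.20 CPM. In basal cells *Cxcl1* was at 200 and 214 CPM and *Ccl2* at 324 and 452 CPM, so that neither was lower there in the DTX-labelled library, whereas *Tnip3* was at 116 and 47.4 CPM and *Tnfaip6* at 29.5 and 10.9 CPM. In infundibulum cells *Ccl2* was at 347 and 73.5 CPM. A test of a difference between cell classes was not possible with 1 library per label. Collagen cells held *Cxcl1* at 4283 and 6841 CPM, *Ccl2* at 8235 and 8235 CPM and *Tnfaip6* at 4670 and 4108 CPM. The part of such RNA in these ratios was not tested. In the whole cytokine list 1 of 18 compared genes (*Il1f6*) was at least 2-fold higher and 4 lower (*Cxcl1*, *Ccl2*, *Il1b* and *Tslp*), and the median was -0.26.

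*Hes1*, a target and effector of Notch signalling, was at 67.0 CPM in PBS-labelled and 10.5 CPM in DTX-labelled spinous cells (log2 ratio -2.56, interval -3.80 to -1.74). It was at 124 and 34.6 CPM in basal cells and at 102 and 54.2 CPM in infundibulum cells, lower in the DTX-labelled library in each. Thinned spinous cells had a *Hes1* UMI in 22.7% and 2.44% of cells, against 5.39% and 4.51% of *Lyz2* cells. *Notch2* was at 57.7 and 57.4 CPM and *Rbpj*, the DNA-binding partner of Notch, at 45.5 and 50.4 CPM. Of the 22 differentiation regulators compared, 0 were at least 2-fold higher and 2 lower, *Hes1* among them, and the median was 0.07.

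Most basal-layer genes were lower in DTX-labelled spinous cells, with 11 of 15 below a log2 ratio of 0 and 4 above. Their summed level was slightly higher, at 5407 CPM against 5022 CPM in PBS-labelled cells. The median was -0.50, with 0 of 15 at least 2-fold higher and 5 lower. These were *Krt15* (453 and 159 CPM), *Col17a1* (208 and 91.3 CPM), *Igfbp3* (112 and 50.4 CPM), *Sparc* and *Postn* (52.2 and 12.9 CPM). The latter pair is also made by fibroblasts. In basal cells the median of this list was -0.09, and in infundibulum cells -0.30, with 5 of 17 genes at least 2-fold lower, where 69 of all 5376 genes (1.28%) were lower and 30 (0.558%) higher, so that lower ratios were not particular to spinous cells. With every cell thinned to 5000 UMIs, when fewer genes could be compared, the median in spinous cells was 0.00 to 2 decimals.

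Cholesterol synthesis genes were slightly higher in DTX-labelled spinous cells. All 15 compared genes had a ratio above 0, whereas 1780 of all 3741 genes did, and 0 of the 15 reached 2-fold. The median was 0.40, with *Fdft1*, squalene synthase, at 66.4 and 132 CPM and *Fdps* at 166 and 327 CPM. In basal cells the median was 0.53, with 11 of 11 genes above 0 and 2667 of all 4773, and in infundibulum cells 0.60, with 17 of 17 and 3019 of all 5376. All comparisons between the labels rest on the same libraries and are not independent.

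The wound-edge list had a median of -0.15 with 2 genes higher, *Lcn2* and *Krt6b*, and 1 lower, *Plaur*, the urokinase receptor (45.6 and 21.1 CPM). Growth factors and receptors had a median of 0.24 with 0 genes past 2-fold, and *Areg*, a ligand of the EGF receptor, was at 412 and 716 CPM. The medians were 0.06 for interferon-stimulated, 0.04 for glycolysis and hypoxia, -0.23 for immediate early and heat shock (20 of 23 genes below 0, with medians of -0.21 in basal and -0.17 in infundibulum cells), and -0.16 for oxidative stress genes, with 0, 0, 0 and 1 genes past 2-fold, the latter *Ftl1* (ferritin light chain, 128 and 52.7 CPM).

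The list of sex-linked and library background genes had a median of -1.04, with 2 of 3 compared genes at least 2-fold lower, *Gm47283* and the Y-linked *Eif2s3y* (54.0 and 25.8 CPM). In basal cells its median was -2.64, with 3 of 4 genes at least 2-fold lower, and in infundibulum cells -1.62, with 2 of 3. *Gm47283*, an unnamed gene model that the annotation places on chromosome Y, was lower in the DTX-labelled library in every class read here. It was at 159 and 1.17 CPM in spinous cells, from 1501 UMIs and 1 UMI (log2 ratio -6.21, interval -12.39 to -4.61), at 189 and 0.989 CPM in basal and at 133 and 2.02 CPM in *Lyz2* cells. *Lce3e*, a late cornified envelope gene, had 821 UMIs and 0 UMIs in spinous cells, at least 24.8-fold lower in the DTX-labelled library. Of the 821 UMIs 247 lay in 1 cell, and DTX-labelled infundibulum cells held 29. *Ddx3y*, also Y-linked, was at 117 and 93.7 CPM, and *Xist* had 2 UMIs and 0 UMIs.

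**Figure D5:**
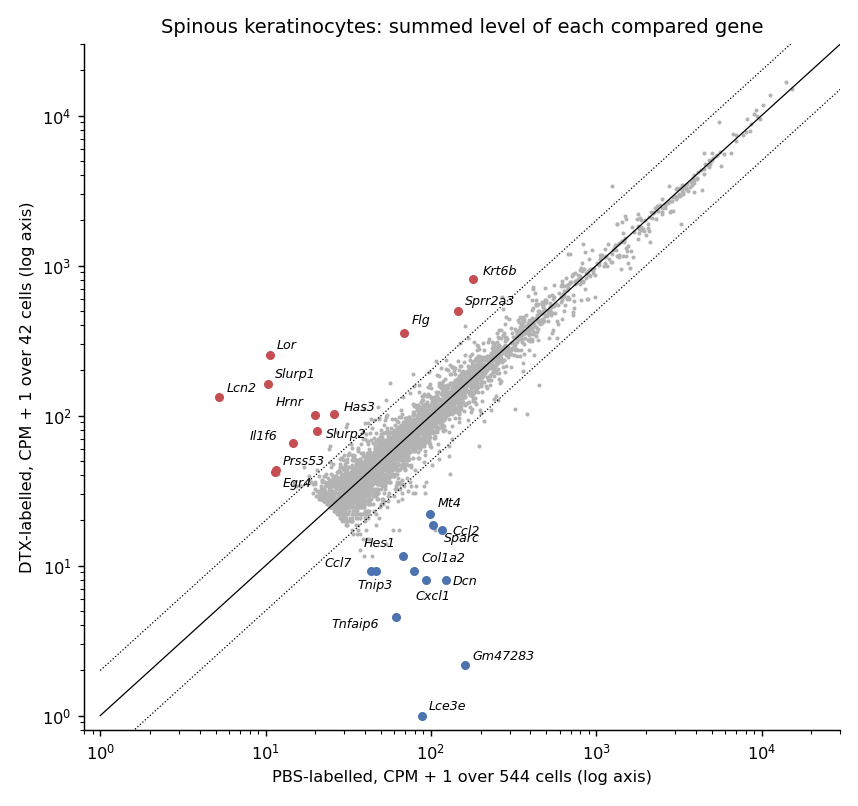
Summed level of each of 3741 compared genes in 544 PBS-labelled (x axis) and 42 DTX-labelled (y axis) spinous cells, as CPM + 1 on log axes, with the line of equal levels and dotted lines at 2-fold. The 12 highest (red) and 12 lowest (blue) ratios are named, and most genes lie between the dotted lines.

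Of the marker lists of other cells, the fibroblast sum is given above and infundibulum markers summed to 2399 and 4516 CPM, of which *Krt17*, a gate gene, made up 1241 and 3377 CPM. Macrophage markers summed to 37.4 and 51.5 CPM over 7 of 7 genes, led by *Lyz2*, T and NK cell markers to 39.1 and 16.4 CPM, with *Cd3e*, *Cd3d*, *Nkg7* and *Gzmb* at 0 in DTX-labelled cells, and endothelial markers to 1.59 and 3.51 CPM. Langerhans cell markers, led by *Cd74*, summed to 136 and 73.8 CPM, with *Cd207* at 0 in the DTX-labelled cells. In the PBS-labelled library 3 members held 5 or more *Ptprc* or 10 or more *Cd74* UMIs, up to 230 *Cd74* UMIs in a cell. Without them 44 genes were at least 2-fold higher and 61 lower between the libraries. The libraries shared 37 cell barcodes, of which 1 in each was a member also kept in the other library. Without these cells the counts were 46 and 61.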

How the data were processed

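Cells of 3 pooled mice per library were sequenced by the 10x Genomics 3′ v3 assay. The deposited tables hold whole-number UMI counts, a value for each gene in each barcode, made by the authors with Cell Ranger 6.1.1 (submitters' processing notes) against mm10, without normalization. Biological replicates were not made, and the 2 technical replicates named in the methods could not be assigned to matrices. The methods' limit of 2000 genes per cell was tried as an alternative, since 95.8% of PBS-labelled and 97.6% of DTX-labelled members exceed it.

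Members, comparison cells and 15 gene lists were chosen with earlier results of these data known. UMIs were summed per class and library, CPM were taken over all genes, and log2 ratios used CPM + 1. Genes entered a comparison at 20 UMIs expected in the smaller sum. Intervals were exact binomial for ratios and shares and exact Poisson for levels. UMIs are counted at the 3′ end and were not divided by gene length, and levels of different genes were not compared. Reads shared by near-identical genes (*Sprr2*, *Lce3*, *Krt6*) are uncertain. Named genes were the 12 highest and 12 lowest of DTX-labelled over PBS-labelled, the 15 highest and 10 lowest over basal and 8 and 8 over infundibulum cells by the ratio nearer 0 of both libraries, without rule, mitochondrial and ribosomal protein genes, and members of the lists. Some genes that these rules name are not reported here. Doublets were left in; Scrublet (scanpy 1.11.5, expected rate 8%) served as an alternative, with the top 8% of scores in the DTX-labelled library, where its threshold called 0.0278%. Ratios and thinning were tested on simulated data. Python 3.11.15, numpy 2.4.6, scipy 1.17.1, pandas 2.3.3 and matplotlib 3.10.9 were used.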

Additional observations from a re-analysis of the deposited data

Results flagged for a closer look

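*Egr4*, an immediate early transcription factor gene, lay on opposite sides in 2 kinds of keratinocyte. Its log2 ratio of DTX-labelled over PBS-labelled was 1.91 in spinous cells (10.5 and 42.2 CPM) and -1.20 in basal cells (35.4 and 14.8 CPM). In DTX-labelled spinous cells 29 of its 36 UMIs lay in 1 cell. The difference between the classes was not tested.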

How the results depend on the processing

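With 1 library per label and 42 DTX-labelled spinous cells, differences between mice and captures could not be estimated, and low genes were limited by depth. No paired analysis was possible because each label has 1 library. The spinous share of the PBS-labelled gate was 31.7% at 10 or more *Krt1* and *Krt10* UMIs, 23.8% at 40 or more, 19.6% at 0.5% of UMIs or more, 25.01% at up to 10% mitochondrial UMIs and 15.8% at up to 2000 genes. Its share of kept cells was 7.46%, 5.597%, 4.61% and 0.912% at the first 3 and the last of these. The DTX-labelled shares at up to 2000 genes were 7.14% of the gate and 0.03785% of kept cells, which left 1 member, so that no ratio between the labels was taken there. Genes at least 2-fold higher and lower, 44 and 60, were 15 and 7 with cells thinned to 5000 UMIs, 336 and 607 without a filter on low counts, and 11 and 6 with 100 UMIs in the smaller sum. With a pseudocount of 10 CPM 29 were higher. In all other alternatives these counts stayed within 1.5 times. Without the DTX-labelled cell rich in granular genes, an alternative chosen after seeing the data like the following ones on single cells, they were 36 and 76. With *Krt79* under 2 UMIs the ratios were -1.64 for *Lor*, -2.54 for *Flg*, -4.36 for *Hrnr* and -2.11 for *Il1f6*. This limit left 39 DTX-labelled members. The granular cell, which held all DTX-labelled *Hrnr* UMIs, was thus not among them. Without the granular cell alone the same ratios were -1.63, -2.55, -4.32 and -2.11. Without the top cell of each gene in each library they were -2.03 for *Flg*, -3.26 for *Hrnr*, -1.66 for *Il1f6* and -0.18 for *Egr4*. For *Lor*, whose top cells held 215 DTX-labelled and 68 PBS-labelled UMIs, the libraries were then nearly alike. The other named genes between the labels kept their direction in every alternative, but *Mt4* reached -0.95 (thinned cells), *Krt6b* 0.54 (*Krt1* and *Krt10* at 0.5% of UMIs or more) and *Slurp2* 0.80 (without the granular cell), under 2-fold. Medians of the lists between the labels were small and several changed sign, from -0.66 to 0.32 for the cornified envelope and from -0.54 to 0.02 for the basal list, whereas cholesterol synthesis ran from 0.24 to 0.61. Over PBS-labelled basal cells the medians ran from 2.48 to 6.06 for the cornified envelope, from -2.63 to -1.85 for the basal list and from 0.05 (at up to 2000 genes) to 1.54 for cholesterol synthesis. Over DTX-labelled basal cells the same medians ran from 3.29 to 5.51, from -2.91 to -2.62 and from 1.08 to 1.47.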
